A study of Mus musculus with 7 samples.

Results

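The 8 annexins described here are the rows of the deposited expression table with the symbols Anxa1, Anxa2, Anxa3, Anxa4, Anxa5, Anxa6, Anxa7 and Anxa11, chosen by gene symbol from 16047 genes. They were measured by 3′ RNA-seq in neutrophils sorted from mouse livers 24 h after acetaminophen-induced liver injury (AILI). Mice labelled C57BL/6 received 300 mg/kg of acetaminophen at an age of 8 to 12 weeks. From 12 h before it and every 24 h, 4 mice were injected with PBS and 3 with 400 µL of medium that held 29 µg/mL of MC-21, an antibody to the monocyte chemokine receptor CCR2. The neutrophils of these livers are called PBS neutrophils and MC-21 neutrophils. Each library came from 50000 CD11b+Ly6CloCX3CR1-GFP-Ly6G+ cells of 1 liver, and the labels number the livers 5 to 8 for PBS and 2 to 4 for MC-21. The control mice received PBS and not antibody-free medium, every mouse of both groups had AILI, and no uninjured liver was among these libraries. The gate uses a GFP reporter, whereas the labels give the strain without a reporter allele.

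Annexins are cytosolic proteins that bind negatively charged phospholipids when calcium rises, through a conserved core of repeats, while a variable N-terminal tail gives each member its own partners. In neutrophils they are known from granule docking and exocytosis, from the repair of the plasma membrane, and from the resolution of inflammation. Anxa1 is the best-known of the pro-resolving members: it is held in neutrophil granules, is released when the cells adhere, and acts through formyl peptide receptors to limit adhesion and to favour neutrophil apoptosis and its clearance. The question of the comparison is whether neutrophils that share the injured liver with fewer infiltrating monocytes express these genes at another level.

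Values are RPKM, read numbers scaled to transcript length and to the mapped reads of the library. In a transcript of 1 kb, 1 RPKM stood for 1.59 reads in the shallowest library (MC-21 3) and 3.96 in the deepest (PBS 8), as read from the steps between low values. Neutrophil identity was seen in the marker genes: S100a9, a calcium-binding protein of the neutrophil cytosol, was the highest of 12 neutrophil markers. The summed neutrophil markers were 18676 to 31031 RPKM in PBS and 28054 to 41446 RPKM in MC-21 neutrophils. Of these 12, 6 were higher and 6 lower in MC-21 neutrophils, where 69.4% of all genes tested were lower. The sum follows its highest genes and does not describe the list as a whole. Markers of other cells were present in every library. The 14 monocyte and macrophage markers summed to 591.5 to 757 RPKM in PBS and 281 to 384.6 RPKM in MC-21 neutrophils (exact permutation p = 0.0286, the smallest that 35 arrangements allow, and 0.286 after adjustment over 10 marker lists). Of these markers, 13 of 14 were lower in MC-21 neutrophils, where 69.4% of all genes tested were lower. An adjusted p under 0.05 with a lower level was found for 6 of 14, where 0.427% of all genes had one. The list was chosen with earlier results of these data known, so these counts are not independent support. The paper reports Fcgr1 and the C1q genes as reduced and reads this as a change in the neutrophils. By flow cytometry it also reports smaller fractions of neutrophils with MHC class II and of neutrophils producing reactive oxygen species. Summed liver endothelial markers, led by Clec4g, reached 1386 to 2943 RPKM in PBS and 1507 to 2451 RPKM in MC-21 neutrophils, and hepatocyte markers 211 to 562 and 219 to 362 RPKM. Annexins are also known from these other cell types. In such bulk samples, fewer cells of a type and less RNA per cell cannot be told apart.

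A wide order of levels separated the members. Over the 7 libraries the mean level was 636 RPKM for Anxa2, 205 RPKM for Anxa1 and 158 RPKM for Anxa5, which placed these members at ranks 125, 383 and 468 of all genes. The next were Anxa3 at 29.0, Anxa7 at 27.2 and Anxa11 at 25.0 RPKM, followed by Anxa6 at 9.38 and Anxa4 at 1.78 RPKM. Neighbours in this order whose library ranges lay apart were Anxa2 and Anxa1, Anxa5 and Anxa3, Anxa11 and Anxa6, and Anxa6 and Anxa4. Ranges crossed for Anxa1 and Anxa5, with Anxa1 higher in 5 of 7 libraries, for Anxa3 and Anxa7, with Anxa3 higher in 3 of 7, and for Anxa7 and Anxa11, with Anxa7 higher in 4 of 7. Since 3′ reads need not scale with length, the order was also taken on RPKM multiplied by transcript length. On that scale Anxa7 and Anxa11 came before Anxa3, and the other 5 members kept their places.

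**Figure D1:**
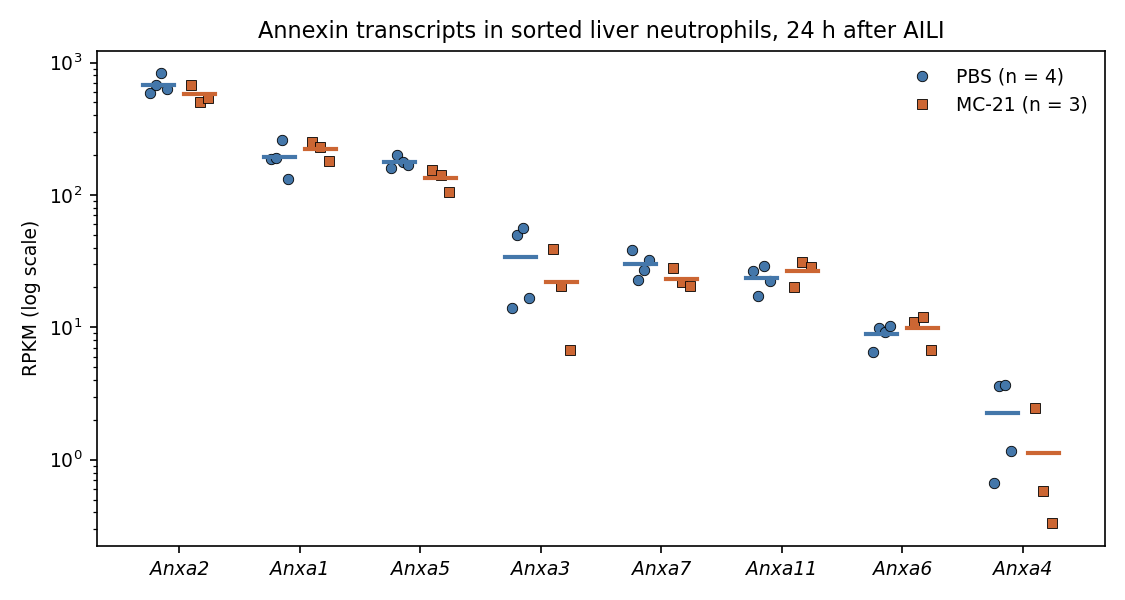
RPKM on a log axis of the 8 annexins in 4 PBS and 3 MC-21 neutrophil libraries, with 1 point per library and a bar at the mean of each group. Anxa2, Anxa1 and Anxa5 lie above 100 RPKM in every library, and the points of the groups interleave for every member but Anxa5.

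The sum of the 8 members was 1016 to 1395 RPKM in PBS and 888.6 to 1186 RPKM in MC-21 neutrophils. Anxa2 alone made up 52.4% to 62.3% of it, and Anxa2, Anxa1 and Anxa5 together 91.0% to 93.0%. The stretches before the start sites of these 3 genes are shown because they carry most annexin transcript in these cells. They are the 250 bases upstream of the start from RefSeq on GRCm38.p6, 5′ to 3′ on the gene's own strand, at chr19:20390672-20390921 (minus strand), chr9:69453433-69453682 (plus strand) and chr3:36475888-36476137 (minus strand). Capitals mark the letters TATAAA, the core of a TATA box.
Anxa1: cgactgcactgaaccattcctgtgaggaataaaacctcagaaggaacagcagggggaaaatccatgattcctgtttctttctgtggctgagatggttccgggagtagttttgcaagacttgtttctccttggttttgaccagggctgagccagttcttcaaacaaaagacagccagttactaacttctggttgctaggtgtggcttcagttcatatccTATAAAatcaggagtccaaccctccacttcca
Anxa2: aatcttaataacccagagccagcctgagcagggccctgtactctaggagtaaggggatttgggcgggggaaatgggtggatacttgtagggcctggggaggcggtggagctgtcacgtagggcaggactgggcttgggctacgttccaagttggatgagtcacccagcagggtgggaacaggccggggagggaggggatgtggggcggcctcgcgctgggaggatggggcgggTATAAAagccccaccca
Anxa5: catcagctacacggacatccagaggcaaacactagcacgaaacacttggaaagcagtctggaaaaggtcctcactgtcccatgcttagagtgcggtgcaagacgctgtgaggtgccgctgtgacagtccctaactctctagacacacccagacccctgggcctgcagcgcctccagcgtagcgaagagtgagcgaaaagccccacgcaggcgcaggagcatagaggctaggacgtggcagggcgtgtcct
TATAAA was searched on both strands from 250 bases before to 50 bases after the start, for the 6 members with an entry (Anxa1, Anxa2, Anxa4, Anxa5, Anxa7 and Anxa11). It begins 32 bases before the start of Anxa1 and 17 bases before that of Anxa2, on the sense strand of both, and was not found in the windows of the other 4. Of 32544 promoter windows of the same length, 13.6% hold these letters on either strand. The window of Anxa1 holds 3 CG dinucleotides, that of Anxa2 13 and that of Anxa5 16, beside a median of 7 over all windows. A match of letters is a description and not a site in use.

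Between MC-21 and PBS neutrophils, no member passed the test across all genes. Differences were fitted with limma on log2(RPKM + 1) over 9594 genes whose mean level reached 1 RPKM, and all 8 members were among these. An adjusted p under 0.05 was found for 0 of 8 members, where 0.625% of all genes tested had one. Before adjustment, 1 of 8 members (Anxa5) had a p under 0.05, where 14.7% of all genes did (11.2% lower and 3.59% higher). The groups did not overlap for 1 of 8 members, Anxa5 again, and for 13.3% of all genes tested. Of the members, 5 had a lower and 3 a higher mean in MC-21 neutrophils, and 69.4% of all genes had a lower one. The median difference was -0.29 for the members and -0.15 for all genes tested. The 95% interval lay within a 2-fold change either way for 6 of 8 members, all but Anxa3 and Anxa4.

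**Figure D2:**
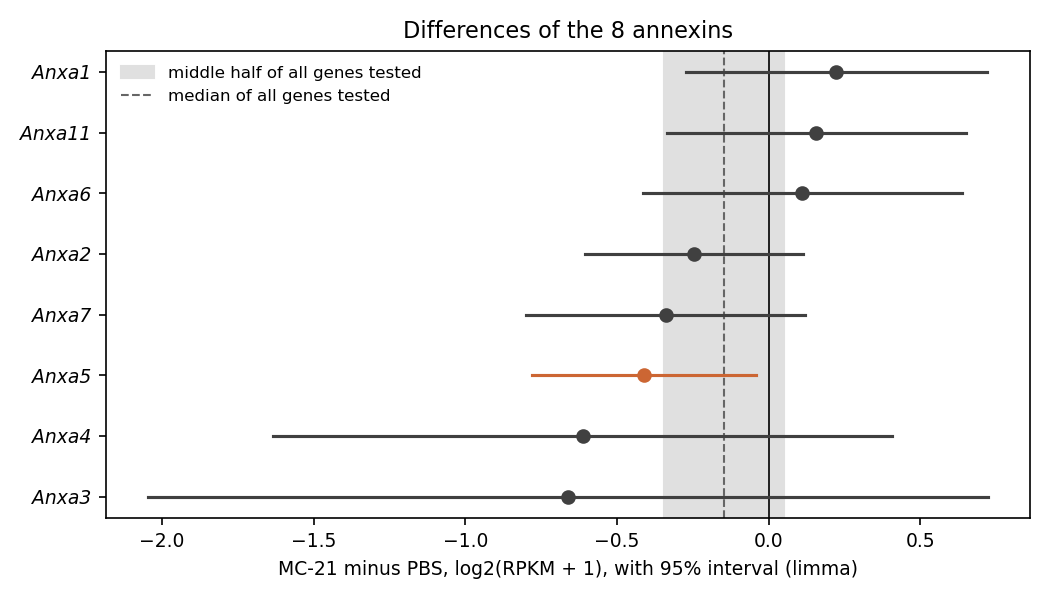
Difference between MC-21 and PBS neutrophils in log2(RPKM + 1) for each annexin, with points at the estimate and lines for the 95% interval from limma, over the quartile range (grey) and median (dashed) of 9594 genes. Only the interval of Anxa5, in orange, does not cross 0, and those of Anxa3 and Anxa4 are the widest.

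Anxa1 (chromosome 19:20447918-20465434 on mm9, minus strand) showed no difference beyond the spread of the libraries. It stood at 188, 189, 261 and 132 RPKM in PBS neutrophils 5 to 8 and at 252, 229.7 and 181 RPKM in MC-21 neutrophils 2 to 4. All 3 MC-21 values lay inside the PBS range, which PBS 8 opened at the low end and PBS 7 at the high end. Group means were 193 ± 52.7 (SD, n = 4) and 221 ± 36.4 RPKM (SD, n = 3). The log2 difference was 0.22 (SE 0.22, 95% interval -0.27 to 0.72, limma's adjusted p = 0.682). It was 0.39 with median centring of the libraries, and ran from 0.06 without PBS 8 to 0.38 without PBS 7 when single libraries were left out.

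Anxa5 (chromosome 3:36347847-36374765, minus strand) is the protein whose labelled form is used to stain phosphatidylserine on dying cells, and in cells it is thought to form lattices on exposed or torn membranes. Its level was 159, 202, 178 and 168 RPKM in PBS neutrophils and 154, 142 and 105 RPKM in MC-21 neutrophils. Every MC-21 library lay below every PBS library, though MC-21 2 and PBS 5 were nearly level. Group means were 177 ± 18.6 (SD, n = 4) and 134 ± 25.7 RPKM (SD, n = 3). The log2 difference was -0.41 (SE 0.16, 95% interval -0.78 to -0.04), a fitted fold of 1.33 for PBS over MC-21, with an unadjusted p of 0.0324 and an adjusted p of 0.302 by limma. The exact permutation test gave 0.0286, the smallest p of this design. Median centring of the libraries, which shifts the median of all genes by 0.16, gave -0.25 (limma's adjusted p = 0.588), and without MC-21 4 the difference was also -0.25 (adjusted p = 0.583). The monocyte and macrophage markers, whose sum in MC-21 neutrophils was 0.496 of that in PBS neutrophils, were lower in the same libraries, and their part in the lower Anxa5 was not tested.

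Anxa2 (chromosome 9:69301427-69339602, plus strand) forms a complex with S100a10 that links membranes to actin and binds plasminogen at the cell surface. It measured 587, 677, 831 and 633 RPKM in PBS neutrophils and 679, 504 and 540.4 RPKM in MC-21 neutrophils. MC-21 3 and MC-21 4 lay below all PBS libraries, and MC-21 2 lay among them. With means of 682 ± 106 (SD, n = 4) and 575 ± 92.6 RPKM (SD, n = 3), the log2 difference was -0.25 (SE 0.16, 95% interval -0.61 to 0.11). Its adjusted p was 0.511 by limma. The difference was slightly larger than the residual SD within groups of 0.22. It moved to -0.08 with median centring, to -0.10 after correction for GC content and to -0.31 with quantile normalization. When single libraries were left out, it lay between -0.37 (without MC-21 2) and -0.15 (without PBS 7).

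Anxa3 (chromosome 5:97222404-97274987, plus strand), a granule-associated annexin of neutrophils, varied widely between libraries. It ran from 14.0, 49.6, 56.5 and 16.8 RPKM in PBS neutrophils to 38.7, 20.5 and 6.75 RPKM in MC-21 neutrophils. The highest library was 8.36 times the lowest, and both groups held high and low libraries. The spread within groups, as residual SD on the log2 scale, was 1.08 for Anxa3, larger than in 98.9% of all genes tested, beside a median of 0.28 over those genes. The log2 difference of -0.66 (SE 0.62, 95% interval -2.05 to 0.72) had an adjusted p of 0.661, and ran from -1.20 to -0.02 when single libraries were left out, the latter without MC-21 4.

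Anxa4 (chromosome 6:86686834-86743578, minus strand), known best from secretory epithelia, was the lowest member. It was at 0.667, 3.60, 3.64 and 1.16 RPKM in PBS neutrophils and at 2.45, 0.579 and 0.332 RPKM in MC-21 neutrophils. At its longest transcript these levels come to 2.45 reads in each of MC-21 3 and MC-21 4 and to 31.8 reads in PBS 6, so the low values rest on a few reads, and its highest library was 10.98 times its lowest. The difference was -0.61 on the log2 scale (SE 0.45, 95% interval -1.63 to 0.41), with an adjusted p of 0.568. It was -1.08 with a pseudocount of 0.1 (SE 0.76, adjusted p = 0.549) and -0.39 with quantile normalization, and ran from -1.03 without MC-21 2 to -0.34 without MC-21 4 when single libraries were left out. Its residual SD of 0.75 exceeded that of 95.3% of all genes.

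The same 3 libraries, PBS 6, PBS 7 and MC-21 2, were the highest for Anxa2, Anxa3 and Anxa4. This pattern was chosen after the values were seen, crosses the treatment groups, and was shared by 700 of the 9594 genes (7.30%). Among the genes of the pathway lists below it held for Nr3c1, Vps4b, Atp11b, Tmem30a and Cpne1. After each library was corrected for its trend with GC content, the residual SD was 1.04 for Anxa3 and 0.71 for Anxa4, close to the values as deposited. MC-21 4 was the lowest library for 4 of 8 members (Anxa3, Anxa4, Anxa5 and Anxa7) and for 27.8% of all genes tested.

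**Figure D3:**
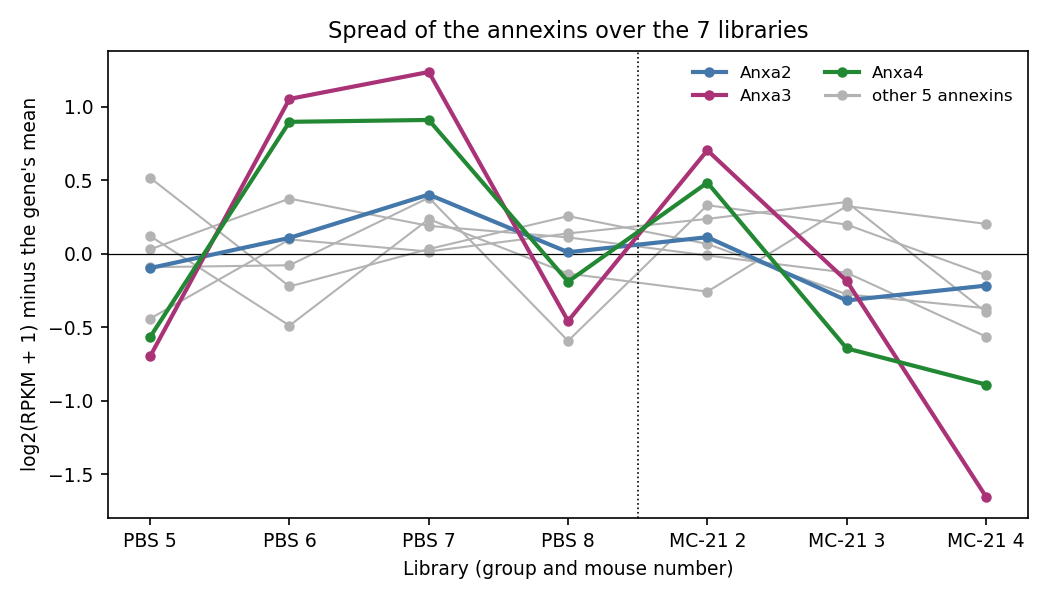
Log2(RPKM + 1) of each annexin in each of the 7 libraries, centred on the gene's own mean, where lines join the values of 1 gene and the libraries have no order. Anxa3 and Anxa4 span 2.89 and 1.80 on this scale, high in PBS 6, PBS 7 and MC-21 2, while the other 6 members span under 1.

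Anxa6, Anxa7 and Anxa11 did not pass the test, and the differences of Anxa6 and Anxa11 were smaller than their residual SD within groups, 0.33 and 0.32. Anxa6 (chromosome 11:54792610-54846947, minus strand), the largest annexin, which carries a duplicated core and takes part in cholesterol traffic, stood at 6.50, 9.90, 9.29 and 10.2 RPKM in PBS and 11.01, 12.0 and 6.73 RPKM in MC-21 neutrophils. MC-21 2 and MC-21 3 were the highest libraries and PBS 5 and MC-21 4 the lowest. Its log2 difference was 0.11 (SE 0.23, adjusted p = 0.855), and it was 0.28 with median centring, 0.34 without MC-21 4, and changed sign to -0.02 without PBS 5 and to -0.03 without MC-21 3.

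Anxa7 (chromosome 14:21274483-21299355, minus strand), or synexin, which aggregates granule membranes, stood at 38.5, 22.7, 27.3 and 32.0 RPKM in PBS and 27.9, 21.8 and 20.4 RPKM in MC-21 neutrophils. The groups overlapped through PBS 6, PBS 7 and MC-21 2. The log2 difference was -0.34 (SE 0.20, 95% interval -0.80 to 0.12, adjusted p = 0.483), beside a residual SD of 0.28. It was -0.18 with median centring and -0.22 both after correction for GC content and without PBS 5. Anxa11 (chromosome 14:26661669-26706290, plus strand), which binds the calcium sensor Pdcd6 and tethers RNA granules to lysosomes, stood at 26.7, 17.2, 29.0 and 22.2 RPKM in PBS and 20.3, 31.0 and 28.4 RPKM in MC-21 neutrophils. Its highest library was MC-21 3 and its lowest PBS 6. The log2 difference was 0.16 (SE 0.22, 95% interval -0.34 to 0.65, adjusted p = 0.780). It was 0.32 with median centring and 0.33 after correction for GC content, and ran from 0.02 without PBS 6 to 0.33 without MC-21 2 when single libraries were left out.

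The proportions between members were compared within libraries. The ratio of Anxa1 to Anxa2 was 0.209 to 0.320 in PBS and 0.334 to 0.456 in MC-21 neutrophils, and that of Anxa1 to Anxa5 was 0.786 to 1.47 in PBS and 1.62 to 1.72 in MC-21 neutrophils. Anxa1 was thus higher relative to Anxa2 and Anxa5 in every MC-21 library. Of the 28 pairs of members, these and the ratio of Anxa5 to Anxa6 did not overlap between groups, 3 of 28. The same was asked of each member's ratio to every other tested gene above 0 in all libraries. The share without overlap was 10.3% for Anxa1, 8.16% for Anxa2, 15.0% for Anxa5 and 8.5% for Anxa6. It was 1.34% for Anxa3, 1.61% for Anxa4, 6.9% for Anxa7 and 8.88% for Anxa11, so the count over members is near this background.

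Genes whose values across the 7 libraries were most like those of Anxa5 and Anxa7, the members with the smallest p, were taken by the root mean square difference of the centred log2 values. For Anxa5 these were Ptma at 0.0564, Cyfip1 at 0.0673 and Akr1b3 at 0.0687. For Anxa7 they were Scap at 0.0669, Ilf2 at 0.0769 and Mad2l2 at 0.0835. Likeness over 7 libraries includes what depth and library composition give to many genes.

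Of 4 other annexins sought in the table, Anxa9 was tested, at 4.18 to 6.95 RPKM in PBS and 5.72 to 8.18 RPKM in MC-21 neutrophils (log2 difference 0.30, SE 0.21, adjusted p = 0.556). Anxa8 was above 0 only in PBS 7, at 0.200 RPKM, and Anxa13 only in PBS 7 at 0.607 and MC-21 3 at 1.52 RPKM. Anxa10 was not found under that symbol.

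Around Anxa1, the list of its receptors and of genes of its induction and processing had 12 names, of which 5 could be tested. After adjustment 1 of the 5 passed, and it was higher in MC-21 neutrophils, where 0.198% of all genes tested were called higher. This was Fpr1, the high-affinity formyl peptide receptor, which peptides of the Anxa1 tail also bind. Fpr1 stood at 35.5, 29.7, 27.3 and 34.2 RPKM in PBS and at 71.9, 62.7 and 52.5 RPKM in MC-21 neutrophils, with no overlap. Its log2 difference was 0.95 (SE 0.16, 95% interval 0.58 to 1.32, adjusted p = 0.0415 by limma). The call was lost, with adjusted p between 0.0614 and 0.123, on leaving out any 1 of the 7 libraries, and at 0.113 with no filter on low values and 0.0634 without a trend, and it held under the other 6 of 15 alternatives. The difference stayed between 0.84 and 1.11 over all 15.

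Fpr2, the receptor most tied to whole Anxa1 protein, stood at 61.9, 39.6, 72.5 and 42.1 RPKM in PBS and at 82.1, 81.9 and 43.6 RPKM in MC-21 neutrophils. MC-21 2 and MC-21 3 were the highest libraries, while MC-21 4 lay low among the PBS values. The log2 difference was 0.34 (SE 0.28, 95% interval -0.30 to 0.97, adjusted p = 0.626). Whether Fpr1 and Fpr2 differ in their response was not tested. The glucocorticoid receptor Nr3c1 and its target Tsc22d3 had log2 differences of -0.28 and 0.13 with adjusted p of 0.624 and 0.795. Prtn3, the granule protease that cleaves Anxa1, had -0.08 with an adjusted p of 0.943.

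Among the annexin binding partners, 11 of 15 were tested, of which 0 rose and 1 fell after adjustment, where 0.427% of all genes were called lower. The one that fell was S100a4, a motility-linked S100 protein abundant in monocytes, which went from 299 ± 48.7 (SD, n = 4) to 32.7 ± 4.07 RPKM (SD, n = 3). Its log2 difference was -3.15 (SE 0.16, limma's adjusted p = 6.06e-05). The monocyte markers were lower in the same libraries, and their part in it was not tested.

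S100a10, the partner of Anxa2, stood at 447.9, 284, 270.1 and 354.6 RPKM in PBS and at 219, 257 and 234.6 RPKM in MC-21 neutrophils. All MC-21 libraries lay below all PBS libraries, and PBS 5 was the highest. The log2 difference of -0.49 (SE 0.18, 95% interval -0.90 to -0.08) had an unadjusted p of 0.0249 and an adjusted p of 0.274. Ahnak, a giant scaffold bound by the Anxa2 complex, was at 1.36 to 3.52 RPKM in PBS and 1.01 to 1.19 RPKM in MC-21 neutrophils (log2 difference -0.64, SE 0.26, adjusted p = 0.304). S100a11, the partner of Anxa1, and S100a6, a partner of Anxa11, had differences of 0.32 and 0.22 with adjusted p of 0.431 and 0.542.

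**Figure D4:**
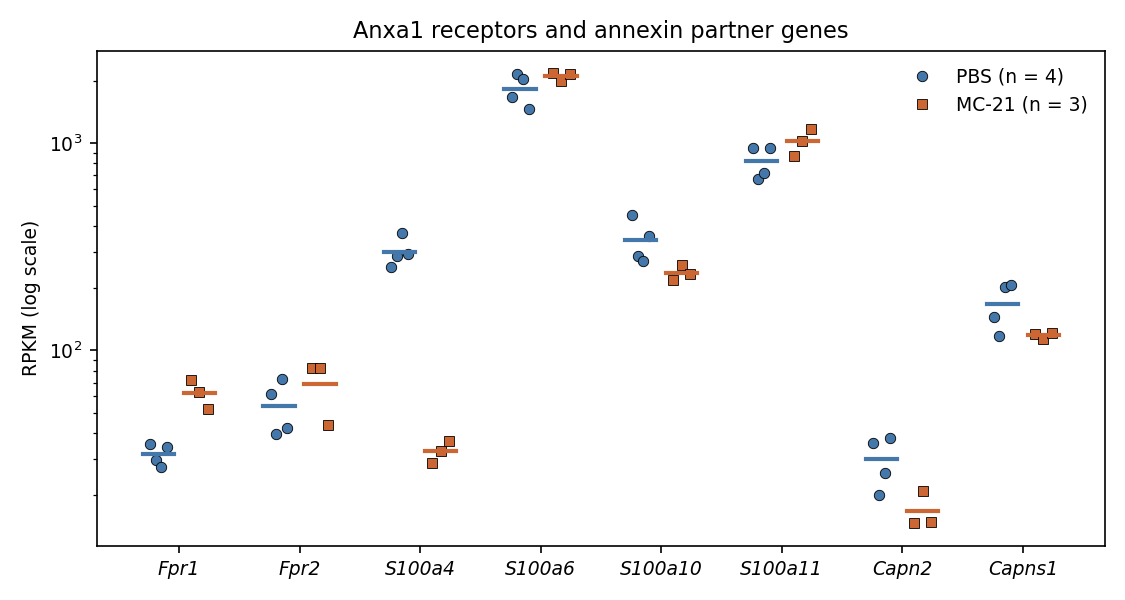
RPKM on a log axis of annexin receptors, S100 partners and calpain subunits in 4 PBS and 3 MC-21 neutrophil libraries, 1 point per library with a bar at each group mean. The groups lie apart for Fpr1, higher in MC-21 neutrophils, and for S100a4 and S100a10, lower in them, while Fpr2, S100a6, S100a11, Capn2 and Capns1 overlap.

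The remaining lists held genes that act on the membranes annexins bind. Of 14 membrane repair genes, 11 were tested and 0 passed after adjustment. Myof, whose mean lay below the level for testing, was at 0.608 to 1.77 RPKM in PBS and 0.0504 to 0.352 RPKM in MC-21 neutrophils, without overlap. Such low values rest on few reads, and 13.3% of all genes tested were without overlap. The monocyte and macrophage markers were lower in the same libraries, and their part in the lower Myof was not tested. Capn2 and Capns1, subunits of calpain, a calcium-activated protease, had the smallest p of those tested. Their log2 differences were -0.77 (SE 0.24, adjusted p = 0.211) and -0.47 (SE 0.20, adjusted p = 0.332). Capn2 was at 20.1 to 37.8 RPKM in PBS and 14.7 to 20.9 RPKM in MC-21 neutrophils, an overlap by MC-21 3 and PBS 6. Of 9 tested genes listed under phosphatidylserine exposure, 0 passed. Those nearest to it were Plscr3, of the family named phospholipid scramblases, at -0.43 (adjusted p = 0.384) and the flippase Atp11a at 0.39 (adjusted p = 0.444). The copines, calcium-dependent membrane binders of another family, had 3 tested members and 0 called, with Cpne2 at 0.26 (adjusted p = 0.553) and Cpne3 at 0.23 (adjusted p = 0.674). Over all lists, 40 genes were tested, and 1 rose and 1 fell after adjustment, where 0.198% of all genes rose and 0.427% fell. The median log2 difference was -0.06, beside -0.15 for all genes tested.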

How the data were processed

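Neutrophils of 4 PBS-treated and 3 MC-21-treated mice, 1 liver per library, were grouped by their labels. Per the submitters' processing notes and the methods, the authors used HISAT 0.1.5 and the build mm9 for mapping and Partek 6.6 for the RPKM of each gene, and deposited these values. The annotation, the handling of reads shared between genes and any filter on low values are not given in the sources used here. Depth was estimated from the steps between low RPKM values, of which 74.1% lay within 0.1 of a whole read, so read counts were not recovered for nearly all genes and no count test was run.

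Genes whose mean level reached 1 RPKM were tested with limma 3.58.1 (lmFit, eBayes with a trend; R 4.3.3) on log2(RPKM + 1), with Benjamini-Hochberg adjustment over all 9594 genes. On this scale the change of low genes is understated. Single values were compared by two-sided exact permutation over 35 splits, using Python 3.11.15 and scipy 1.17.1. The fit was tested on simulated data with planted shifts larger than any annexin difference. That simulation therefore does not show whether differences of the size seen here would be found. Of the 8 members, 7 share no 50-base stretch with transcripts of another gene, and Anxa4 shares 0.801%. Alternatives were a pseudocount of 0.1, no filter, a minimum mean of 5 RPKM, quantile normalization, median centring, limma without a trend or with robust settings, and leaving out each library. A lowess correction for GC content (span 0.3) was added after the data were seen.

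The members, lists and marker genes were chosen with earlier results of these data known. Named genes are the members, other annexins in the table, from each list up to 5 genes with an unadjusted p under 0.05 or else the 2 with the smallest p, and the 3 genes most like each of the 2 members with the smallest p. Fpr2, Nr3c1, Tsc22d3, Prtn3, S100a6, S100a11, Myof and the genes sharing the library pattern were named after their values were seen.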

Additional observations from a re-analysis of the deposited data

Results flagged for a closer look

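Among the annexins, the named list genes and the marker sums, 29 groups of 4 PBS libraries were checked for a library far from the others with Dixon's ratio, and chance alone flags about 1 in 20. The sum of the B cell markers was 30.1 RPKM in PBS 6 and 11.2 to 14.2 RPKM in the other PBS libraries, a ratio of 0.844, above Dixon's critical value for 4 samples. No annexin was flagged.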

How the results depend on the processing

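Of 119 values of the 8 annexins under the alternatives, 117 kept their direction and their side of the threshold, and the smallest adjusted p of any was 0.269, for Anxa5 without MC-21 2. The 2 that reversed belong to Anxa6, whose difference of 0.11 was -0.0196 without PBS 5 and -0.0323 without MC-21 3, and ran from -0.03 to 0.34 when single libraries were left out. Anxa4 could not be tested with a mean of at least 5 RPKM. Changing the filter or the limma settings leaves a gene's estimate as it was, so those values could not reverse. In the main fit no member had an adjusted p below 0.302, so staying above the threshold was likely from the start. The count of 117 is therefore little evidence of stability. The count of annexins with an unadjusted p under 0.05 was 1 of 8, where 14.7% of all genes tested had one. It was 0 with median centring, without a trend and after the GC correction, and 0 to 2 when single libraries were left out. The count of annexins whose groups did not overlap was 1 of 8, where the same held for 13.3% of all genes tested. It was 0 with median centring and after the GC correction, and 1 to 4 without single libraries, 4 without MC-21 2. In the pathway lists, 2 of 40 genes tested had an adjusted p under 0.05, where 0.625% of all genes did. The count was 1 with no filter, 1 without a trend and 1 on leaving out any 1 library. Groups did not overlap for 4 of 40, where 13.3% of all genes tested did not, and for 5 to 10 without single libraries. Among the same genes, leaving out a library can only keep or raise a count without overlap, so those rises follow from the design. The cause of the changes in the p counts was not tested. No share over all genes is given here for the alternatives, so their counts are not read as a result about the annexins or the lists. Median centring, quantile normalization and the GC correction moved the median of all genes by 0.16, 0.14 and 0.13. No paired analysis was run, because each mouse had 1 treatment and the labels name no batch or day that would pair the libraries. Low depth limits Anxa4 above all.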
